A study of Homo sapiens with 42 samples.

Results

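The 31 sterol and fatty acid synthesis genes described here are a list of named genes: 18 enzymes of cholesterol synthesis, 6 proteins of sterol sensing and SREBP control, and 7 enzymes of fatty acid synthesis and desaturation. They were taken by their GENCODE symbols out of 58721 annotated genes, and all 31 were found and tested in each of the 4 gene count tables. The study made compounds that degrade ENL, the chromatin reader encoded by MLLT1 that binds acetylated histones through its YEATS domain, and profiled RNA after exposure to its degrader MS41. The comparisons below ask what the list did under MS41 at 2 times, and whether a reader-domain inhibitor, a control compound, another cell line, ENL guides or dosing of mice gave the same picture.

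MV4;11 is a human myeloid leukaemia line that carries the MLL-AF4 fusion and is labelled WT here. It was exposed to MS41 at 100 nM, to PFI-6 at 100 nM, to MS41N at 100 nM or to DMSO, for 24 h and for 6 h, with 3 libraries for each compound and time. PFI-6 is a chemical probe that blocks the YEATS domains of ENL and of its relative AF9, and MS41N is the control compound of MS41. MS41N is the name in the sample titles, while the treatment protocol writes MS47N. SEMK2, a human B-precursor leukaemia line, had 3 libraries with MS41 at 100 nM and 3 with DMSO, with no exposure time in its labels. MV4;11 cells with the ENL guides ENLsg1 and ENLsg2 had 2 libraries each, against 2 libraries with the control guide Negsg, and the labels do not say whether these were pools or single clones. MV4;11 cells from mice given MS41 or vehicle had 3 libraries each. The design text calls that experiment a xenograft, and neither dose nor time is in the labels. Cultured cells grew in RPMI medium with fetal bovine serum, which supplies cholesterol and fatty acids to cells. The labels do not say that replicates were separate cultures, so p-values measure the spread between these libraries, which may be technical.

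Cells build cholesterol from acetyl-CoA through mevalonate, isoprenoid diphosphates, squalene and lanosterol. SREBP proteins, encoded by SREBF1 and SREBF2, are membrane-bound transcription factors that switch on these enzymes and those of fatty acid synthesis. When sterols are scarce, the escort protein SCAP carries SREBP to the Golgi, where proteases free its active part, and when sterols are plentiful INSIG1 and INSIG2 hold the SCAP-SREBP complex in the endoplasmic reticulum. SREBF2 mainly drives sterol enzymes, SREBF1 mainly drives fatty acid enzymes, and liver X receptors also raise SREBF1 and SCD. Fatty acid synthesis starts with ACLY and ACACA, which make acetyl-CoA and malonyl-CoA, goes on with FASN, which makes palmitate, and ends with elongation and desaturation by ELOVL6, SCD, FADS1 and FADS2.

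Promoters of members at different ends of the results are shown as the stretch just before the gene, since SREBP proteins bind DNA together with the CCAAT-binding factor NF-Y and with SP1, which binds GC boxes. A RefSeq promoter sequence (build GRCh38.p14) was matched for 27 of the 31 members, with no entry for ACAT2, FDFT1, SQLE or FASN. Each stretch reads 5′ to 3′ on the strand of its gene and ends at or before the annotated start, and capitals mark the letters TCACNCCAC (a sterol response element), CCAAT or GGGCGG on either strand. LSS (chr21:46228825-46228974, minus strand), SREBF1 (chr17:17837003-17837152, minus strand) and SCD (chr10:100346983-100347123, plus strand) are members that were lower with MS41 at 24 h. INSIG1 (chr7:155297628-155297775, plus strand) and SREBF2 (chr22:41832929-41833078, plus strand) are members that were not called there.
LSS: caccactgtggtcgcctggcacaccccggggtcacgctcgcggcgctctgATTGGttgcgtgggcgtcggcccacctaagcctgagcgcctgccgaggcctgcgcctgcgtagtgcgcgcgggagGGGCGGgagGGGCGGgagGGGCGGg
SREBF1: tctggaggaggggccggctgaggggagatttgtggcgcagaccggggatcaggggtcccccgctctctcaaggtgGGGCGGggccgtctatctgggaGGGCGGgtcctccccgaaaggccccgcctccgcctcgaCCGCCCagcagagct
SCD: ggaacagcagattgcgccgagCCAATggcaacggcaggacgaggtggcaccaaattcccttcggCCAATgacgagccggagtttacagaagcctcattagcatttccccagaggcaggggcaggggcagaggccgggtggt
INSIG1: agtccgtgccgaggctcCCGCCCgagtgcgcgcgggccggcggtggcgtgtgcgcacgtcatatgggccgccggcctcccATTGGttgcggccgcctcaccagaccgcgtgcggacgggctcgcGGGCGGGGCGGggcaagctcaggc
SREBF2: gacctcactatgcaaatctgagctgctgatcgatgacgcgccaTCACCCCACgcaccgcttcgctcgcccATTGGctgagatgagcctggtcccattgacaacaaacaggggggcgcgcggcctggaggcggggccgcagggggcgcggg

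The window searched ran from 250 bases before to 50 bases after the RefSeq start, on both strands. TCACNCCAC was found in 1 of the 27 members (3.7%), SREBF2, against 1.39% of the 27305 genes with a promoter entry. CCAAT was found in 20 of the 27 members (74.1%), against 39.7% of all genes. GGGCGG was found in 26 of the 27 members (96.3%), against 48.3% of all genes. In the printed stretches, LSS and INSIG1 had 1 CCAAT and 3 GC boxes each, SREBF1 had 3 GC boxes, SCD had 2 CCAAT and SREBF2 had 1 sterol element and 1 CCAAT. The stretches leave out part of the window searched. There SCD had GC boxes at -33 and -11 from the RefSeq start and SREBF2 at -23, -10 and -5, and LSS and INSIG1 had more as well. A match is only a match of letters, and a window without one says only that these letters are not in it.

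Gene counts summed to 102.3 to 156.5 M (M stands for 1e+06) per library for the MV4;11 compound set, 155.9 to 230.6 M for SEMK2, 77.22 to 87.81 M for the guides and 99.49 to 126.7 M in vivo. By group means, MV4;11 cells had 9 of 10 myeloid markers at 1 CPM or more (counts per 1e+06 of the scaled library), with CD14 below that level. ITGAM was close to it (0.914 CPM in its lowest DMSO library at 6 h). SEMK2 cells had at least 8 of 9 B-lineage markers at that level. Markers of other types reached it too: 1 to 3 of 9 B-lineage markers in MV4;11 groups. In SEMK2 it was 4 or 5 of 10 myeloid markers and 2 of 7 stromal and endothelial markers. Summed levels in SEMK2 were 1692 to 1800 CPM for B-lineage, 27.8 to 45.6 CPM for myeloid and 78.5 to 86.4 CPM for stromal and endothelial markers. The target itself, MLLT1, had 181 and 190.1 CPM with ENLsg1 and 123 and 127 CPM with ENLsg2, against 223 and 249.8 CPM with the control guide. Its log2 fold change was -0.63 (SE 0.06, adjusted p = 6.4e-05) with the guides, -0.25 (adjusted p = 2.5e-09) with MS41 at 24 h and -0.16 (adjusted p = 6.5e-05) with MS41 at 6 h. RNA of MLLT1 does not measure ENL protein. In bulk libraries, fewer cells of a type and less RNA per cell cannot be told apart.

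Levels of the members differed widely in DMSO-treated MV4;11 cells. Per kilobase of exon at 6 h, ACLY averaged 73.9 ± 1.53 CPM per kb and SCD averaged 53.6 ± 0.537 CPM per kb (SD, n = 3 each). FDFT1, FDPS, INSIG1, SQLE and FASN followed at 35.2, 34.96, 34.3, 33.4 and 30.3 CPM per kb, and the spread of FASN (3.12 CPM per kb, SD) covers the distance between it and SQLE. SREBF2 stood at 27.6 CPM per kb and SREBF1 at 4.50 CPM per kb. The lowest were ELOVL6 at 0.734 ± 0.0336 CPM per kb and CYP51A1 at 0.376 ± 0.0495 CPM per kb (SD, n = 3 each). The list as a whole summed to 2338 to 2437 CPM with MS41 at 24 h, against 3064 to 3081 CPM in DMSO at 24 h. At 6 h it summed to 2064 to 2081 CPM with MS41, against 2200.1 to 2289 CPM in DMSO.

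Most of the list was lower with MS41 at 24 h. Of the 31 members, 19 were lower and 4 higher (edgeR quasi-likelihood test, Benjamini-Hochberg adjusted p below 0.05, also the meaning of called in what follows), where 22.9% of all 22711 genes tested were lower, 21.4% higher and 44.3% called in either direction. The median log2 fold change of the members was -0.25, against 0.02 over all genes tested. MS41 and DMSO libraries did not overlap for 27 of the 31 members, as for 50.2% of all genes. With the trend of fold change on gene GC content removed, 16 members were lower and 7 higher, with a median of -0.15, against 0.08 over all genes. In that fit 10288 of all genes were called, 56.2% of them higher.

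**Figure D1:**
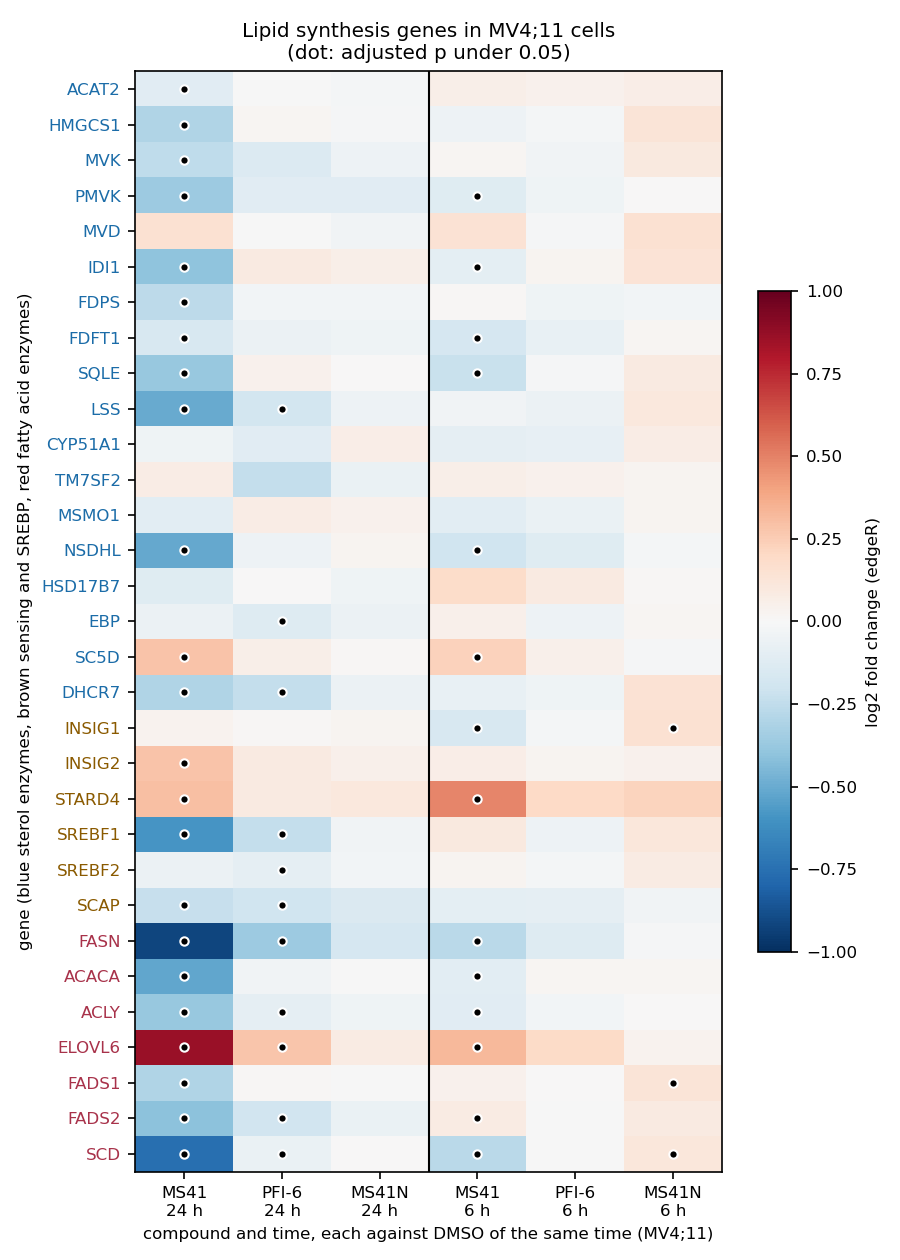
Log2 fold change against DMSO of the 31 members (rows, grouped by role) for MS41, PFI-6 and MS41N at 24 h and then at 6 h (columns); blue cells are lower and red cells higher than DMSO, and dots mark an adjusted p below 0.05 in edgeR. The MS41 column at 24 h holds 19 lower and 4 higher dots, the PFI-6 column at 24 h 10 lower and 1 higher, and the MS41N column at 24 h none.

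Of the 18 enzymes of cholesterol synthesis, 11 were lower and 1 was higher with MS41 at 24 h, with a median log2 fold change of -0.21. Lower members came from every stretch of the pathway. In the mevalonate stretch the log2 fold changes were PMVK -0.36, HMGCS1 -0.30, FDPS -0.26, MVK -0.25 and ACAT2 -0.11, for phosphomevalonate kinase, the synthase that makes HMG-CoA, farnesyl diphosphate synthase, mevalonate kinase and the thiolase of the opening step. IDI1, the isopentenyl diphosphate isomerase, was at -0.40 (adjusted p = 8.7e-14). In the squalene and lanosterol stretch, SQLE, squalene epoxidase, was at -0.38 (adjusted p = 4.8e-16), LSS, lanosterol synthase, at -0.50 (adjusted p = 4.0e-09) and FDFT1, squalene synthase, at -0.16 (adjusted p = 6.4e-07). NSDHL, a dehydrogenase that helps to remove methyl groups from sterols, was at -0.51 (adjusted p = 2.6e-13), and DHCR7, the reductase of a closing step, at -0.30 (adjusted p = 7.4e-04).

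SC5D, the desaturase that acts just before DHCR7, went the other way. It had 29.8, 30.2 and 29.6 CPM with MS41 at 24 h, against 25.3, 24.6 and 23.6 CPM in DMSO, a log2 fold change of 0.29 (SE 0.05, adjusted p = 1.7e-06). All 3 MS41 libraries were above all 3 DMSO libraries. The other 6 sterol enzymes were not called: MVD, the mevalonate diphosphate decarboxylase, had a log2 fold change of 0.15, TM7SF2, a sterol reductase, 0.07, CYP51A1, lanosterol demethylase, -0.04, EBP, a sterol isomerase, -0.06, MSMO1, a methylsterol oxidase, -0.10, and HSD17B7, a ketosteroid reductase, -0.12. CYP51A1 and TM7SF2 were low in these cells, and the 95% interval of CYP51A1 ran from -0.37 to 0.28.

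Among the 6 genes of sterol sensing and SREBP control, 2 were lower and 2 higher. SREBF1, which encodes SREBP-1, had 16.3, 18.2 and 16.6 CPM with MS41 at 24 h, against 24.8, 24.4 and 27.6 CPM in DMSO, a log2 fold change of -0.59 (SE 0.06, adjusted p = 2.0e-12). The 3 MS41 libraries lay below the 3 DMSO libraries. SREBF2, which encodes SREBP-2, was not called at -0.06 (95% interval -0.12 to -0.01, adjusted p = 0.069), and SCAP was lower at -0.23 (adjusted p = 3.9e-06).

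INSIG2 had 20.9, 23.1 and 21.5 CPM with MS41 at 24 h, against 18.7, 17.7 and 17.3 CPM in DMSO, a log2 fold change of 0.29 (SE 0.05, adjusted p = 1.1e-05). STARD4, a protein that carries sterols between membranes and is a known SREBP-2 target, had 23.7, 20.5 and 21.6 CPM with MS41, against 17.9, 16.96 and 18.4 CPM in DMSO, a log2 fold change of 0.30 (SE 0.07, adjusted p = 1.8e-04). For both, all MS41 libraries were above all DMSO libraries. INSIG1, also an SREBP target, had 153, 159 and 153 CPM with MS41 at 24 h, against 152, 153 and 148 CPM in DMSO, so its libraries stood just apart, but the difference was not called and the 95% interval of its log2 fold change was -0.03 to 0.10.

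The 7 fatty acid genes had 6 lower and 1 higher, with a median log2 fold change of -0.41. FASN, the fatty acid synthase, had 130.2, 143 and 135 CPM with MS41 at 24 h, against 248, 251 and 275 CPM in DMSO, a log2 fold change of -0.92 (SE 0.08, adjusted p = 1.2e-08). SCD, which makes monounsaturated fatty acids, had 299, 299.8 and 284 CPM with MS41, against 498, 499 and 491 CPM in DMSO, a log2 fold change of -0.75 (SE 0.02, adjusted p = 8.8e-30). ACACA, the acetyl-CoA carboxylase, had 127, 129.5 and 125 CPM with MS41, against 185, 179 and 182 CPM in DMSO, a log2 fold change of -0.52 (SE 0.03, adjusted p = 7.8e-21). For each of the 3, every MS41 library lay below every DMSO library. With the GC trend removed, FASN was at -0.71, SCD at -0.72 and SREBF1 at -0.42.

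ACLY, ATP-citrate lyase, was lower with MS41 at 24 h at -0.38 (adjusted p = 4.2e-18), and the desaturases FADS2 and FADS1, which act on polyunsaturated fatty acids, were at -0.41 and -0.30. ELOVL6, which lengthens palmitate, was the fatty acid gene that rose. It had 11.6, 10.9 and 12.8 CPM with MS41 at 24 h, against 6.50, 6.88 and 6.01 CPM in DMSO, a log2 fold change of 0.86 (SE 0.07, adjusted p = 1.4e-13). Its 3 MS41 libraries were above its 3 DMSO libraries, at a low level throughout.

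Of the 23 calls at 24 h, 20 were also made under every alternative processing and without each single library. The call of SCAP ended when the GC trend was removed, and those of ACAT2 and MVK ended there and without some single libraries: ACAT2 without DMSO 24 h replicate 1 (-0.10) or MS41 24 h replicate 3 (-0.09), MVK without DMSO 24 h replicate 3 (-0.20) or MS41 24 h replicate 1 (-0.21). Myeloid markers moved with these results: 7 of 10 were higher and 1 lower, and their summed level was 3025 to 3193 CPM with MS41 at 24 h, against 1869 to 1899 CPM in DMSO, with none of the 10 at 0. The T and NK markers summed to 13.4 to 14.5 CPM with MS41, against 6.08 to 7.09 CPM in DMSO, but only 1 of these 8 markers reached 1 CPM by group mean in each. Mitochondrial genes took 5.86 to 7.04% of counts with MS41, against 5.20 to 5.41% in DMSO. Their part in the result was not tested.

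**Figure D2:**
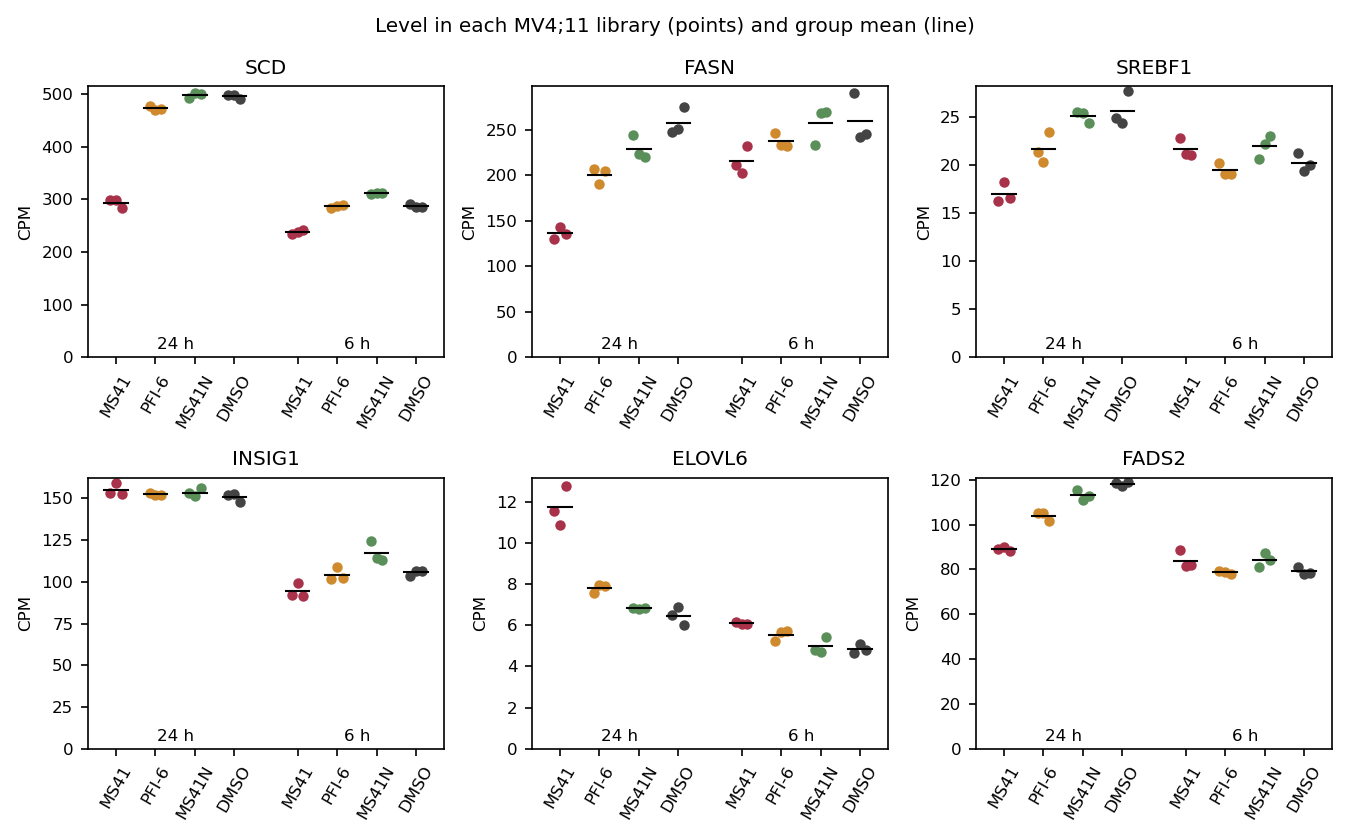
CPM of SCD, FASN, SREBF1, INSIG1, ELOVL6 and FADS2 in each of the 24 MV4;11 compound libraries, 24 h at the left and 6 h at the right, with compounds before DMSO; points are libraries and bars their means. With MS41 at 24 h, SCD, FASN and SREBF1 lie below and ELOVL6 above all DMSO libraries of that time, and INSIG1 stays close to them.

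Most of the genes rose with time in DMSO alone. Of the 19 members lower with MS41 at 24 h, 15 were higher in DMSO at 24 h than at 6 h, and FASN, NSDHL, PMVK and SCAP did not pass that test. That share is near the share of the whole list, given next, and both comparisons use the DMSO 24 h libraries. In DMSO at 24 h against 6 h, 24 of the 31 members were higher and 0 lower, where 16.7% of all genes were higher and 30.2% called in either direction. At an unadjusted p below 0.05 no member was lower either. The median log2 change of the members was 0.44, against 0.00 over all genes. By role, 14 of 18 sterol enzymes, 4 of 6 sensing and SREBP genes and 6 of 7 fatty acid genes were higher, and all 24 calls were kept under every alternative and without each single library.

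DHCR7 had 14.8, 14.5 and 17.2 CPM at 24 h, against 6.07, 6.72 and 5.67 CPM at 6 h in DMSO, a log2 change of 1.33 (SE 0.08, adjusted p = 1.8e-18). FADS1 had 200.1, 202 and 201 CPM at 24 h, against 96.2, 94.7 and 99.7 CPM at 6 h, a log2 change of 1.05 (SE 0.03, adjusted p = 5.4e-32). In both genes all 24 h libraries were above all 6 h libraries. MSMO1 had 31.04, 32.6 and 31.9 CPM at 24 h, against 16.6, 16.5 and 16.8 CPM at 6 h, a log2 change of 0.94 (SE 0.05, adjusted p = 2.5e-19). CYP51A1 had 2.26, 2.60 and 2.34 CPM at 24 h, against 1.43, 1.10 and 1.25 CPM at 6 h, a log2 change of 0.93 (SE 0.17, adjusted p = 1.7e-05). The 24 h libraries of both again lay above the 6 h libraries.

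SQLE, TM7SF2 and SCD rose by 0.83, 0.80 and 0.79 on the log2 scale in DMSO. The 7 members not called between the DMSO times were PMVK, MVD, NSDHL, HSD17B7, INSIG2, SCAP and FASN, and FASN stood at -0.01 (95% interval -0.17 to 0.15). A rise of FASN between the DMSO times was thus not detectable, while SCD and FADS1 rose. The myeloid marker sum was 1869 to 1899 CPM in DMSO at 24 h, against 970.1 to 982 CPM in DMSO at 6 h, and its part in this difference was not tested.

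Within MS41 libraries the median change, 24 h minus 6 h, was 0.24 on the log2 scale, against 0.40 within PFI-6, 0.36 within MS41N and 0.44 within DMSO. The change of the MS41 effect between the times was tested as an interaction: 16 members had a more negative effect and 3 a more positive effect at 24 h, where 14.5% of all genes were more negative, 11.9% more positive and 26.4% called in either direction. By sign alone, called or not, the change between the times was below that in DMSO for 23 of the 31 members with MS41, 18 with PFI-6 and 25 with MS41N, so that count is not particular to MS41. MS41 at 24 h and the DMSO time comparison share the DMSO 24 h libraries, so the values are given side by side and not correlated.

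The log2 change of SREBF1, 24 h minus 6 h, was -0.35 within MS41 and 0.34 within DMSO, a difference of -0.69 (SE 0.08, adjusted p = 1.5e-09). FASN changed by -0.66 within MS41 and -0.01 within DMSO, a difference of -0.66 (SE 0.11, adjusted p = 1.4e-04). By sign, the level within MS41 was lower at 24 h than at 6 h for SREBF1 and FASN. It was also lower for HSD17B7 (-0.32), ACACA (-0.30), NSDHL (-0.26), PMVK (-0.25), ACLY (-0.08) and SCAP (-0.03), and higher for 23 of the 31 members. The change within MS41 alone was not tested. SCD changed by 0.30 within MS41 and 0.79 within DMSO, a difference of -0.48 (SE 0.03, adjusted p = 1.2e-16). SCD thus rose with time in both, but by less with MS41.

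Further members with a more negative MS41 effect at 24 h were FADS2 -0.49, LSS -0.47, ACACA -0.41, FADS1 -0.34, NSDHL -0.31, IDI1 -0.31, HSD17B7 -0.30, ACLY -0.27, FDPS -0.27, HMGCS1 -0.25, PMVK -0.24, ACAT2 -0.17 and SQLE -0.16, as the difference of log2 changes. ELOVL6 went the other way, with 0.94 within MS41 and 0.41 within DMSO, a difference of 0.54 (SE 0.11, adjusted p = 1.1e-04). INSIG2 and INSIG1 also had a more positive effect at 24 h, by 0.23 and 0.20. The calls of HSD17B7 and INSIG2 were lost without some single libraries, with ranges of -0.36 to -0.24 for HSD17B7 (DMSO 6 h replicates 2 and 3, MS41 6 h replicate 1, DMSO 24 h replicate 3 and MS41 24 h replicate 2) and 0.18 to 0.26 for INSIG2 (DMSO 6 h replicate 1, MS41 6 h replicate 3, DMSO 24 h replicate 3 and MS41 24 h replicate 2), and that of ACAT2 without MS41 6 h replicate 1 (-0.14).

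**Figure D3:**
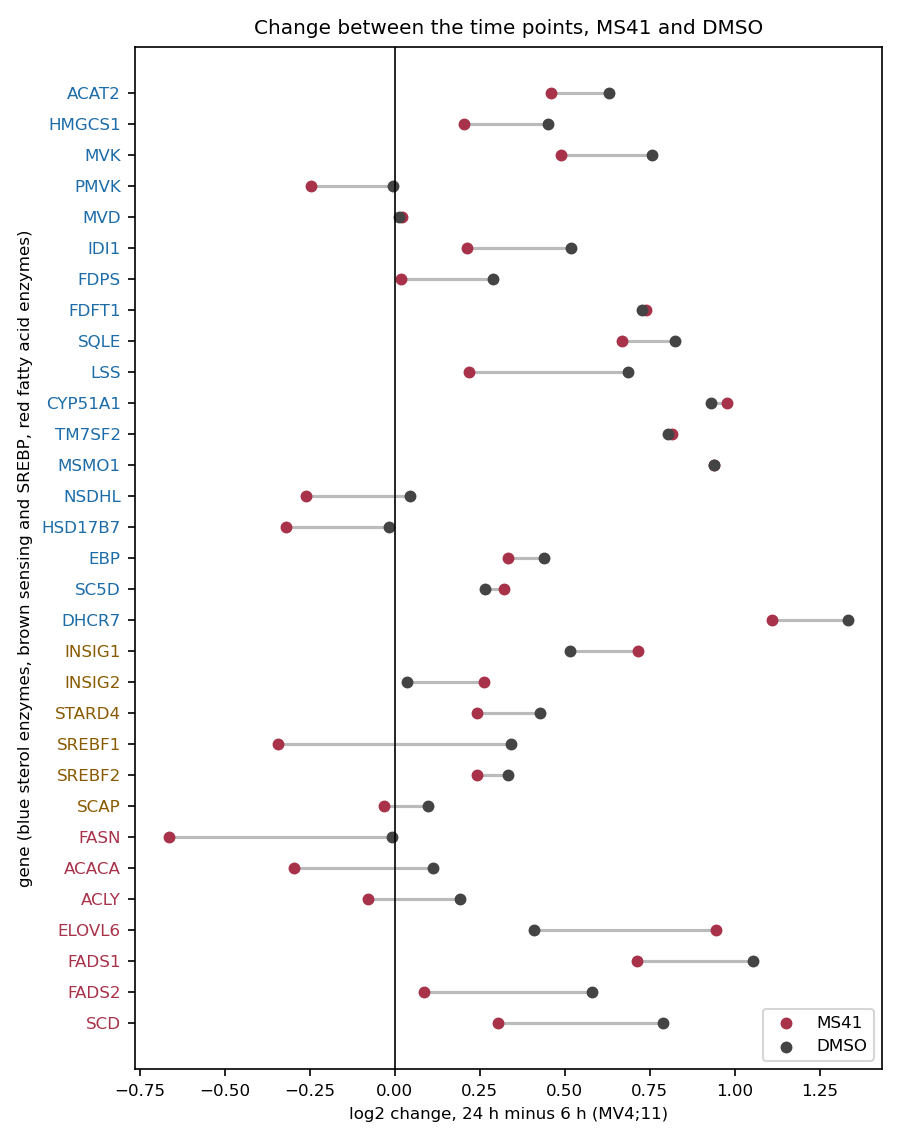
Log2 change from 6 h to 24 h of each of the 31 members within MS41 libraries and within DMSO libraries, by role; the vertical line marks no change. The DMSO points lie right of the line for 28 of the 31 members and the MS41 points for 23.

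MS41 for 6 h gave a smaller and more mixed picture. Of the 31 members, 10 were lower and 4 higher, where 13.8% of all genes were lower, 12.2% higher and 26.0% called in either direction. The median log2 fold change of the members was -0.04, against 0.02 over all genes. With the GC trend removed it was 0.01, against 0.04 over all genes, with 10 members lower and 10 higher. In that fit 6296 of all genes were called, 53.3% of them higher. Of the 14 calls, 10 were made under every alternative and without each single library. Of the 10 myeloid markers, 3 were higher and 3 lower, and their summed level was 875 to 889 CPM with MS41, against 970.1 to 982 CPM in DMSO, with CD14 at 0 in the lowest MS41 library. Mitochondrial genes took 5.56, 7.09 and 5.68% of counts in the MS41 libraries, against 5.49 to 5.63% in DMSO, so MS41 6 h replicate 2 stood apart. The part of these values in the 6 h differences was not tested.

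The larger falls at 6 h were in both arms of the list. SCD had 235, 238 and 242 CPM with MS41 at 6 h, against 291, 286 and 286 CPM in DMSO, a log2 fold change of -0.27 (SE 0.02, adjusted p = 3.0e-13). SQLE had 83.4, 87.96 and 83.9 CPM with MS41, against 97.9, 98.1 and 101 CPM in DMSO, a log2 fold change of -0.22 (SE 0.03, adjusted p = 1.8e-08). NSDHL had 27.8, 29.05 and 30.4 CPM with MS41, against 34.5, 32.1 and 33.97 CPM in DMSO, a log2 fold change of -0.20 (SE 0.04, adjusted p = 4.1e-04). For SCD, SQLE and NSDHL, the MS41 libraries were below the DMSO libraries without overlap.

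FASN had 212, 203 and 232 CPM with MS41 at 6 h, against 290.0, 242 and 245 CPM in DMSO, a log2 fold change of -0.27 (SE 0.08, adjusted p = 0.014). Its call was lost without DMSO 6 h replicate 1 (-0.18), without MS41 6 h replicate 2 (-0.23) and when only the groups compared entered the fit. The remaining lower members were FDFT1 -0.17, INSIG1 -0.16, PMVK -0.12, ACLY -0.11, ACACA -0.11 and IDI1 -0.09. PMVK lost its call without any 1 of 5 of the 6 libraries, all but DMSO 6 h replicate 3, with values of -0.14 to -0.10 over the single libraries left out. IDI1 lost its call without DMSO 6 h replicate 2 or 3 or MS41 6 h replicate 3, with values of -0.12 to -0.06.

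STARD4 rose most at 6 h. It had 18.3, 18.6 and 18.8 CPM with MS41, against 11.6, 13.3 and 14.8 CPM in DMSO, a log2 fold change of 0.49 (SE 0.07, adjusted p = 2.0e-07). ELOVL6 had 6.14, 6.08 and 6.05 CPM with MS41 at 6 h, against 4.67, 5.11 and 4.82 CPM in DMSO, a log2 fold change of 0.32 (SE 0.08, adjusted p = 0.0011). SC5D had 24.5, 24.03 and 23.2 CPM with MS41, against 20.1, 20.3 and 20.8 CPM in DMSO, a log2 fold change of 0.23 (SE 0.05, adjusted p = 2.0e-04). All MS41 libraries of these 3 genes were above all DMSO libraries.

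FADS2 had 88.6, 81.3 and 81.9 CPM with MS41 at 6 h, against 81.3, 77.8 and 78.3 CPM in DMSO, a log2 fold change of 0.08 (SE 0.03, adjusted p = 0.034). The lowest MS41 library was level with the highest DMSO library to 3 digits, and the call was lost without DMSO 6 h replicate 2 (0.07), DMSO 6 h replicate 3 (0.08) or MS41 6 h replicate 1 (0.04), and under 3 alternatives. At 24 h it had 89.01, 90.1 and 88.1 CPM with MS41, against 118, 117 and 119 CPM in DMSO, below them without overlap. The 2 times used separate DMSO libraries: 9 members were lower at both, which is 9 of the 19 lower at 24 h and 9 of the 10 lower at 6 h, and 3 were higher at both, which is 3 of the 4 at each time.

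PFI-6 at 24 h called 10 members lower and 1 higher, where 6.78% of all genes were lower, 5.57% higher and 12.4% called in either direction, with a median log2 fold change of -0.05 for the members, against 0.00 over all genes. Only SCD was still called with the GC trend removed, when calls over all genes fell to 702, against 2806 in the main analysis. The call of SCD was itself lost with RLE size factors and with no low-count filter, as were those of SREBF2 and ACLY with no low-count filter, and 0 of the 11 calls were kept under every alternative. The myeloid markers summed to 1822 to 1867 CPM with PFI-6, against 1869 to 1899 CPM in DMSO, with 2 of 10 lower and 0 higher, and their part was not tested. Without single libraries, 4 to 8 members were called. There were 4 without DMSO 24 h replicate 3 or PFI-6 24 h replicate 2 and 7 without DMSO 24 h replicate 1. Calls over all genes in those fits were 1381, 1516 and 2343, in that order. PFI-6 at 24 h and MS41 at 24 h were set against the same DMSO libraries.

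FASN had 207, 191 and 204 CPM with PFI-6 at 24 h, against 248, 251 and 275 CPM in DMSO, a log2 fold change of -0.36 (SE 0.08, adjusted p = 0.0046). SREBF1 had 21.4, 20.3 and 23.4 CPM with PFI-6, against 24.8, 24.4 and 27.6 CPM in DMSO, a log2 fold change of -0.24 (SE 0.06, adjusted p = 0.0023). For FASN and SREBF1, all PFI-6 libraries were below all DMSO libraries. DHCR7 had 13.9, 13.4 and 12.2 CPM with PFI-6 at 24 h, against 14.8, 14.5 and 17.2 CPM in DMSO, a log2 fold change of -0.24 (SE 0.07, adjusted p = 0.029). SCAP had 43.8, 41.95 and 42.9 CPM with PFI-6, against 49.1, 47.8 and 51.1 CPM in DMSO, a log2 fold change of -0.20 (SE 0.04, adjusted p = 4.5e-04). The PFI-6 libraries of these also lay below the DMSO libraries.

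ELOVL6 was the 1 member higher with PFI-6 at 24 h. It had 7.59, 7.98 and 7.89 CPM with PFI-6, against 6.50, 6.88 and 6.01 CPM in DMSO, a log2 fold change of 0.28 (SE 0.08, adjusted p = 0.011). Its 3 PFI-6 libraries were above its 3 DMSO libraries and below its 3 MS41 libraries. The other lower members were FADS2 -0.19, LSS -0.19, EBP -0.13, ACLY -0.09, SREBF2 -0.09 and SCD -0.07, though SREBF2 was at 0.01 with the GC trend removed. FASN, SCAP and FADS2 kept their calls without each single library. SREBF1 lost its call without DMSO 24 h replicate 3 (-0.18), ELOVL6 without that library (0.23) or PFI-6 24 h replicate 2 (0.26), and SCD without each library in turn, between -0.08 and -0.06. LSS lost its call without DMSO 24 h replicates 1, 2 or 3 or PFI-6 24 h replicates 1 or 2 (-0.24 to -0.13 over the fits without 1 library), EBP without DMSO 24 h replicates 1 or 3 or PFI-6 24 h replicates 1 or 2 (-0.18 to -0.10 over the fits without 1 library) and DHCR7 without DMSO 24 h replicate 3 or PFI-6 24 h replicates 2 or 3 (-0.28 to -0.15 over the fits without 1 library). SREBF2 lost its call without DMSO 24 h replicates 1 or 3 or PFI-6 24 h replicates 2 or 3 (-0.11 to -0.07 over the fits without 1 library) and ACLY without DMSO 24 h replicate 2 or PFI-6 24 h replicate 2 (-0.10 to -0.08 over the fits without 1 library).

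With PFI-6 at 6 h, 0 members were called in edgeR, where 2.05% of all genes were, and 5 had an unadjusted p below 0.05, 2 higher and 3 lower. DESeq2 also called 0. For PFI-6 the change of effect between the times called 0 members, where 0.119% of all genes were called. There, 5 members had an unadjusted p below 0.05. DESeq2 called 1 member and 194 of all genes, against 27 of all genes in edgeR.

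MS41N, the control compound, called 3 members higher and 0 lower at 6 h, where 0.0264% of all genes were higher and 0.321% called in either direction. All 11 members with an unadjusted p below 0.05 were higher, and the median log2 fold change was 0.07. INSIG1 had 125, 114 and 113 CPM with MS41N at 6 h, against 104, 107 and 107 CPM in DMSO, a log2 fold change of 0.15 (SE 0.03, adjusted p = 0.019). SCD had 311, 312 and 312 CPM with MS41N, against 291, 286 and 286 CPM in DMSO, a log2 fold change of 0.12 (SE 0.02, adjusted p = 0.0066). FADS1 had 107, 103 and 108 CPM with MS41N, against 96.2, 94.7 and 99.7 CPM in DMSO, a log2 fold change of 0.13 (SE 0.03, adjusted p = 0.010). In all 3 genes the MS41N libraries were above the DMSO libraries.

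The MS41N calls were small and rested on few libraries. There was 1 without DMSO 6 h replicate 1 and 0 without DMSO 6 h replicate 2. There was 1 without MS41N 6 h replicate 1 and there were 2 without MS41N 6 h replicate 3. Calls over all genes in those fits were 40, 12, 22 and 33, in that order, against 73 with all libraries. Over the single libraries left out, INSIG1 ranged from 0.10 to 0.18, SCD from 0.11 to 0.12 and FADS1 from 0.11 to 0.15. With MS41 at 6 h, INSIG1 had 92.01, 99.5 and 91.7 CPM and a log2 fold change of -0.16 (SE 0.03, adjusted p = 1.0e-04), and SCD was at -0.27, so both were called in opposite directions with MS41 and with MS41N against the same DMSO libraries.

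At 24 h MS41N called 0 members in edgeR, where 0.0352% of all genes were called, and 4 members had an unadjusted p below 0.05, all of them lower. DESeq2 called 0 as well. The 95% intervals of all 31 log2 fold changes lay between -0.33 and 0.39 at that time. The change of the MS41N effect between the times also called 0 members, where 0.0176% of all genes were called, with 7 members at an unadjusted p below 0.05.

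The 3 compounds had 1 dose and the same 2 times, so they were compared in 3 pairs at each time, with p-values adjusted over all genes in each of the 6 comparisons. MS41 against MS41N at 24 h called 18 members lower and 4 higher, where 21.9% of all genes were lower, 20.5% higher and 42.4% called in either direction. The larger differences were SCD -0.76, FASN -0.75, SREBF1 -0.56, NSDHL -0.53 and ACACA -0.51 and, upward, ELOVL6 0.78, SC5D 0.27, INSIG2 0.24 and STARD4 0.20. The call of STARD4 was lost without MS41 24 h replicate 1 (0.14) or MS41N 24 h replicate 1 (0.14). At 6 h, 13 members were lower and 3 higher with MS41 than with MS41N, where 11.7% of all genes were lower, 10.1% higher and 21.8% called in either direction. There SCD differed by -0.39 (SE 0.02, adjusted p = 3.2e-18), INSIG1 by -0.31 (SE 0.03, adjusted p = 1.6e-10) and SQLE by -0.31 (SE 0.03, adjusted p = 2.3e-12).

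MS41 against PFI-6 at 24 h called 17 members lower and 5 higher, where 21.6% of all genes were lower, 20.7% higher and 42.3% called in either direction. SCD differed by -0.69 (SE 0.02, adjusted p = 3.7e-28), FASN by -0.56 (SE 0.08, adjusted p = 8.5e-06), IDI1 by -0.49 (SE 0.03, adjusted p = 1.4e-16) and SREBF1 by -0.35 (SE 0.06, adjusted p = 1.1e-06). ELOVL6 was higher with MS41 than with PFI-6 by 0.58 (SE 0.07, adjusted p = 5.2e-09), and TM7SF2 by 0.31 (SE 0.10, adjusted p = 0.011). The call of TM7SF2 was lost without MS41 24 h replicate 1 (0.24), as was that of STARD4 (0.15). DHCR7, lower than DMSO with both compounds, differed between them by -0.06, with a 95% interval of -0.22 to 0.09, and SCAP by -0.03, with an interval of -0.11 to 0.05.

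At 6 h, 7 members were lower and 4 higher with MS41 than with PFI-6, where 10.1% of all genes were lower, 9.35% higher and 19.5% called in either direction. Without PFI-6 6 h replicate 3 the total fell to 6, with 3638 calls over all genes, against 4422 with all libraries. SCD differed by -0.27 (SE 0.02, adjusted p = 6.9e-13), SQLE by -0.21 (SE 0.03, adjusted p = 1.1e-07) and STARD4 by 0.29 (SE 0.07, adjusted p = 9.7e-04). FASN did not pass at -0.14, with a 95% interval of -0.30 to 0.02. The MS41 libraries are the same in the comparisons with DMSO, MS41N and PFI-6.

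Few members were called between PFI-6 and MS41N. At 24 h 0 members were called in edgeR, where 0.106% of all genes were. An unadjusted p below 0.05 was found for 8 members, 7 lower and 1 higher with PFI-6. DESeq2 called 3 and the fit of only the groups compared called 4. Calls over all genes were 174 and 162 in these fits, against 24 in the main analysis. FADS2 differed by -0.12 (95% interval -0.18 to -0.06), SREBF1 by -0.21 (-0.32 to -0.10), FASN by -0.19 (-0.35 to -0.03) and ELOVL6 by 0.20 (0.04 to 0.35). At 6 h INSIG1, at -0.17 (adjusted p = 0.030), and SCD, at -0.12 (adjusted p = 0.030), were lower with PFI-6, 2 of the 3 genes called in that direction among all tested (0.0132%). Both calls were lost with another scaling and when only the groups compared entered the fit, and at most 1 was made without any 1 library.

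Of 82 neighbouring genes of lipid metabolism listed beside the members, 78 were tested in the MV4;11 compound set. MS41 at 24 h called 30 of them higher and 22 lower, where 21.4% of all genes were higher and 22.9% lower. SMPDL3A, a known liver X receptor target, was higher by 1.28, and ABCA7 and ABCA1, lipid transporters, by 1.15 and 0.95 on the log2 scale. ERLIN1, which takes part in sterol enzyme turnover, was at -0.47, HACD3, a fatty acid elongation enzyme, at -0.46 and PDSS1, of ubiquinone synthesis, at -0.43.

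By list at 24 h, sterol transport, storage and oxidation had 6 of 12 higher and 0 lower, liver X receptor targets and efflux 4 of 9 higher and 2 lower, fatty acid oxidation 8 of 16 higher and 3 lower, isoprenoid branches 1 of 9 higher and 5 lower, further elongation, desaturation and activation 7 of 20 higher and 8 lower, and SREBP processing and enzyme turnover 4 of 12 in each direction. The isoprenoid branch list had a median of -0.19 and the transport list 0.22. At 6 h, 15 of the 78 were higher and 12 lower with MS41, where 12.2% of all genes were higher and 13.8% lower, led by SMPDL3A at 1.21, ABCA1 at 0.60 and ACACB, the mitochondrial carboxylase, at 0.31, and by ERLIN1 at -0.60 and MID1IP1, which activates acetyl-CoA carboxylase, at -0.31. Between the times, 24 h minus 6 h, the MS41 effect differed by 0.06 (adjusted p = 0.93) for SMPDL3A and by 0.35 (adjusted p = 0.0080) for ABCA1.

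With PFI-6 at 24 h, 9 of the 78 neighbours were called, where 12.4% of all genes were, so their share was near that of all genes. Among them 2 were higher, the fatty acid oxidation enzyme ACADM at 0.15 and the acyl-CoA ligase ACSL4 at 0.13. Another 7 were lower, led by the ubiquitin ligase SYVN1 at -0.26, the mitochondrial membrane protein TSPO at -0.25 and the fatty acid oxidation enzyme ECI1 at -0.24. At 6 h MID1IP1 (-0.20) and ERLIN1 (-0.10) were lower with PFI-6. In DMSO, 29 of the 78 were higher and 17 lower at 24 h than at 6 h, where 16.7% of all genes were higher and 30.2% called in either direction. No neighbour was called with MS41N at either time.

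In SEMK2 cells, 1 member passed the test with MS41. Of the 31 members, 1 was higher and 0 lower, where 0.840% of all 21433 genes were higher and 1.36% called in either direction, and 5 members had an unadjusted p below 0.05, 4 higher and 1 lower. ELOVL6 had 426, 411 and 425 CPM with MS41, against 342, 344 and 379.6 CPM in DMSO, a log2 fold change of 0.24 (SE 0.04, adjusted p = 0.011). The 3 MS41 libraries were above the 3 DMSO libraries. The exposure time is not in the labels, and the direction of ELOVL6 is that of MV4;11 cells at both times.

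The SEMK2 result rested on single libraries. Without SEMK2 DMSO replicate 3, the most deeply sequenced library, 9 members were called, 4 higher and 5 lower, among them FASN at -0.30, STARD4 at 0.24 and HMGCS1 at 0.18. Calls over all genes rose with them, to 2986 in that fit, against 291 with all libraries. DMSO replicate 3 stood apart from DMSO replicates 1 and 2, with chi-square per degree of freedom of 50.7 and 56.4, against 11.1 between those. Mitochondrial genes took 3.13% of its counts, against 2.37 and 2.21% in DMSO replicates 1 and 2 and 2.98 to 3.23% with MS41. The part of these values in the result was not tested. Without any 1 of the other 5 libraries, 0 members were called, and ELOVL6 then ranged from 0.22 to 0.26. FASN had 551, 561 and 508 CPM with MS41, against 673, 661 and 511 CPM in DMSO, and its log2 fold change in the full set was -0.19, with a 95% interval of -0.45 to 0.07. SCD stood at 0.01 (-0.07 to 0.09) and SREBF1 at 0.09 (-0.06 to 0.24). The difference between the lines was not tested, since the tables were made apart.

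With the ENL guides, FASN was the 1 member called, and it was lower, where 4.98% of all 17984 genes were lower and 10.3% called in either direction. FASN had 779.6 and 665 CPM with ENLsg1 and 854 and 834 CPM with ENLsg2, against 1056 and 1003 CPM with the control guide, a log2 fold change of -0.40 (SE 0.07, adjusted p = 0.0051). All 4 ENL guide libraries were below both control libraries, and the call was kept under every alternative and without each single library. At an unadjusted p below 0.05, 4 members were lower and 1 higher. With the replicate number as a term in the fit, 6 members were called, 5 lower and 1 higher. Calls over all genes were then 3203, against 1853 without it, and no label says that same-numbered libraries belong together. DESeq2 called 3 members, with 2249 calls over all genes.

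SCD had 909 and 630.5 CPM with ENLsg1 and 1023 and 892 CPM with ENLsg2, against 1212 and 906 CPM with the control guide, and its log2 fold change of -0.30 was not called (95% interval -0.82 to 0.21). Replicate 1 was the higher library of SCD in each group. By replicate number, each ENL guide library was below its control library, though no label pairs them. SREBF1 was at -0.18 (-0.52 to 0.16). ELOVL6 was at 0.77 without a call, at 1.49 and 0.865 CPM with ENLsg1 and 1.26 and 0.846 CPM with ENLsg2, against 0.746 and 0.559 CPM with the control guide. The 31 genes together summed to 5602 and 4436 CPM with ENLsg1 and 6059.6 and 5782 CPM with ENLsg2, against 6822 and 5558 CPM with the control guide, so these groups overlap. Of the 74 neighbours tested, 6 were called, where 10.3% of all genes were: 4 were higher, among them the sterol carrier GRAMD1B (0.62), ABCA7 (0.55) and the lysosomal lipase LIPA (0.31), and 2 lower, the acyl-CoA ligase ACSL1 (-0.27) and NUS1 of dolichol synthesis (-0.23).

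Myeloid markers moved with the guides too: 6 of 10 were higher and 1 lower, and their sum was 2816 to 2925 CPM with ENLsg1 and 2616 to 2758 CPM with ENLsg2, against 1639 to 1773 CPM with the control guide, with none of the 10 at 0. The sum of the T and NK markers was 55.2 to 57.7 CPM with ENLsg1 and 46.6 to 56.5 CPM with ENLsg2, against 34.8 to 37.6 CPM with the control guide. Only 1 of these 8 markers reached 1 CPM by group mean in each of these groups. Mitochondrial genes took 4.18 to 4.66% of counts with ENLsg1 and 3.82 to 4.63% with ENLsg2, against 3.19 to 3.58% with the control guide. The part of these markers and shares in the FASN difference was not tested.

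In cells from mice, 0 members were called in edgeR between MS41 and vehicle, where 0.0328% of all 21337 genes were called, 2 members had an unadjusted p below 0.05 (1 higher and 1 lower), and DESeq2 called 0. This fit carries a term for the replicate number, because the deposited values were already adjusted by it, and leaves 2 residual degrees of freedom. INSIG2 was at 0.31 (adjusted p = 0.54), SREBF1 at -0.17 (adjusted p = 0.65) and FASN at -0.14 (adjusted p = 0.66), with 95% intervals of 0.09 to 0.52, -0.34 to 0.00 and -0.29 to 0.00. SCD had 36.5, 36.03 and 36.1 CPM with MS41, against 34.4, 34.8 and 34.8 CPM with vehicle, and its log2 fold change was 0.06 (-0.08 to 0.21). MLLT1 was at -0.04 here and was not called. In a fit without the replicate term, 0 members were called as well, while calls over all genes were 523, against 7 with it.

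**Figure D4:**
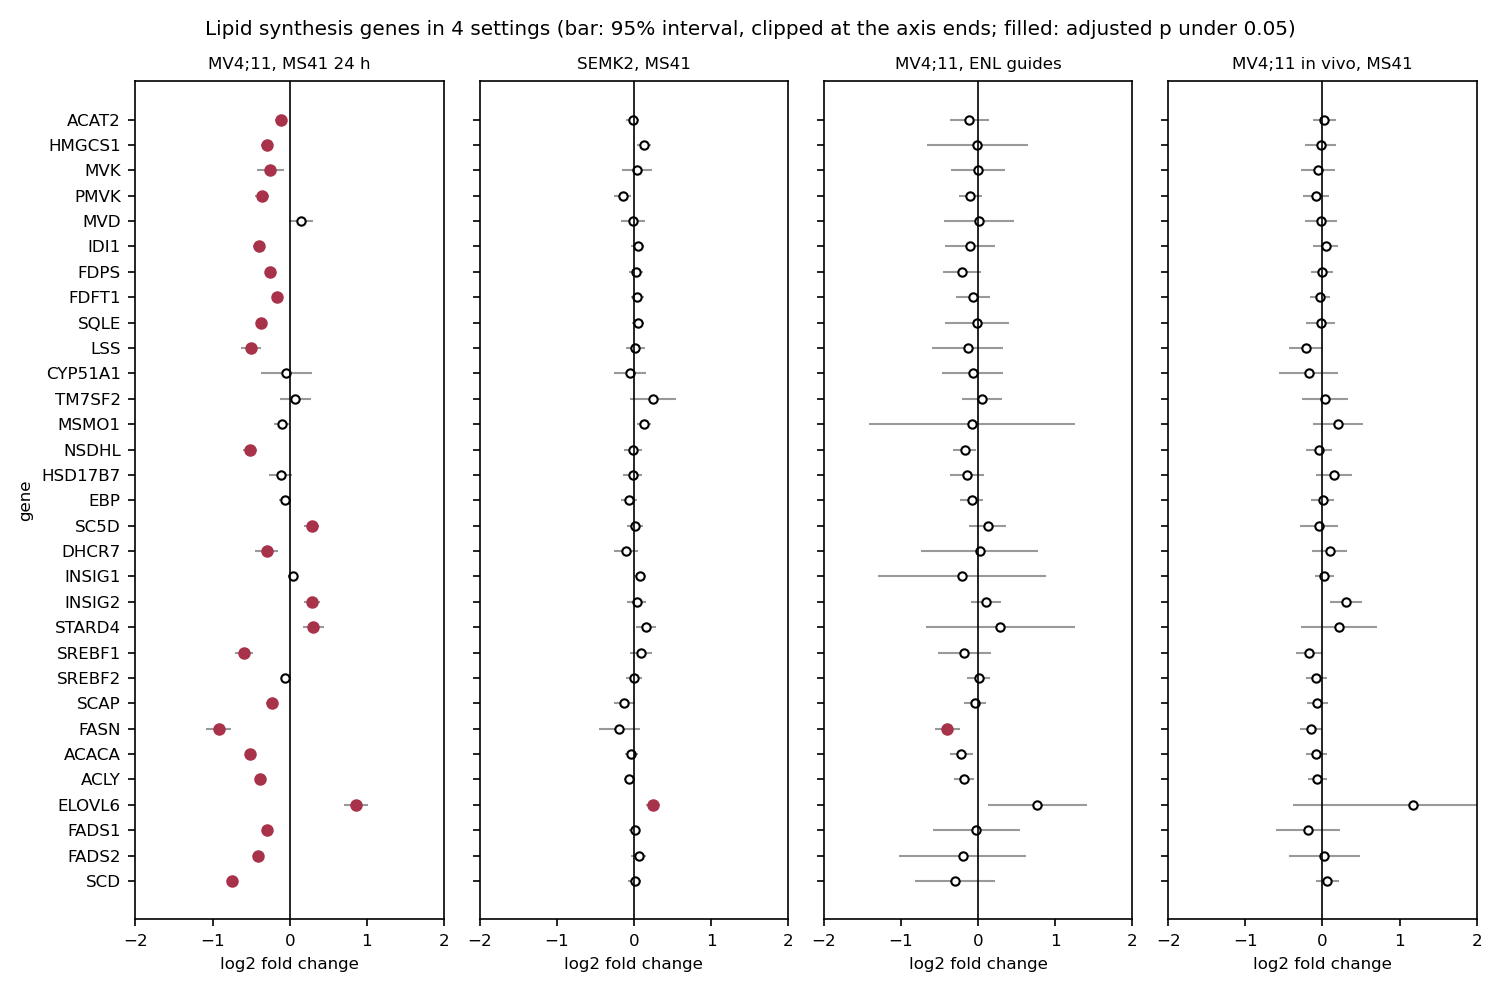
Log2 fold change with its 95% interval of members in 4 settings: MS41 against DMSO in MV4;11 at 24 h, MS41 against DMSO in SEMK2, ENL guides against the control guide, and MS41 against vehicle in vivo. FASN lies left of 0 in all 4, with an interval that excludes 0 in MV4;11 at 24 h and with the guides.

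Some members share exon sequence with other genes, and the strand setting of the counting is not stated. Of the exon length of ACAT2, 34.8% lies in SOD2, 45.8% in SOD2-OT1 and 12.5% in TCP1. FDPS shares 28.9% with RUSC1-AS1 and HMGCS1 19.9% with AC114947.2, while other overlaps were 8.3% or less. FDPS, CYP51A1, HSD17B7, FADS2 and SCD have annotated pseudogenes with which reads may be shared. Their values are less certain for that reason.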

How the data were processed

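RNA-seq of 42 libraries in 15 groups was analysed from 4 gene tables. Per the submitters' processing notes, the authors used CASAVA 1.8, HISAT2 2.1.0 and HTSeq 0.11.3 with build hg38; which strand setting was used is not given in the sources used here. The deposited values of the MV4;11 compound, SEMK2 and guide tables are the authors' raw counts per gene. The in vivo table, from a SMART-Seq v4 library kit per the labels' protocols, holds the authors' expected counts, already adjusted: for 14638 genes with counts of 50 or more, the mean of the same-numbered MS41 and vehicle libraries hardly varied between numbers (median SD 0.00117 on the log2 scale, against 0.0362 to 0.0592 for the other 5 ways of pairing), so they were rounded and fitted with the replicate number as a term, and the true spread between these libraries cannot be seen.

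Genes were named with GENCODE 29, filtered with filterByExpr, scaled by TMM and tested with edgeR 4.0.16 (robust quasi-likelihood test, R 4.3.3, limma 3.58.1). Each table was fitted on its own, the 24 MV4;11 compound libraries in 1 fit, and p-values were adjusted by the Benjamini-Hochberg method over all genes tested (called below 0.05). CPM are counts per 1e+06 of the TMM-scaled library. The biological coefficient of variation was 4.77% in the compound set, 11% in SEMK2, 9.21% with the guides and 13% in vivo, which sets the precision. No 2 libraries of a group were copies (chi-square per degree of freedom 4.13 to 56.4). Alternatives were DESeq2 1.42.0, RLE size factors, no low-count filter, removal of the GC trend (lowess span 0.4), the replicate block, a fit of only the groups compared and leaving out each library. The fitting code was tested on simulated data with 200 changed genes. Per-library values are given for up to 4 called members in each direction with the largest change per comparison, and for members called in opposite directions by 2 compounds; of neighbours, up to 3 in each direction. The members, lists and tests were chosen with earlier results of these data known. Figures were drawn with matplotlib 3.10.9 (Python 3.11.15).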

Additional observations from a re-analysis of the deposited data

Results flagged for a closer look

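The effect of MS41 against DMSO differed between 24 h and 6 h, by a test of the difference itself in edgeR (adjusted p below 0.05), for 19 of the 31 members. The difference of log2 fold changes, 24 h minus 6 h, was -0.17 for ACAT2, -0.25 for HMGCS1, -0.24 for PMVK, -0.31 for IDI1, -0.27 for FDPS, -0.16 for SQLE, -0.47 for LSS, -0.31 for NSDHL, -0.30 for HSD17B7, -0.69 for SREBF1, -0.66 for FASN, -0.41 for ACACA, -0.27 for ACLY, -0.34 for FADS1, -0.49 for FADS2 and -0.48 for SCD. It was positive for ELOVL6 (0.54), INSIG2 (0.23) and INSIG1 (0.20).

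In SEMK2, every MS41 library of HMGCS1 and MSMO1 was above every DMSO library, with log2 fold changes of 0.13 and 0.13, while every MS41 library was below every DMSO library in MV4;11 at 24 h for both and at 6 h for MSMO1. In vivo, SCD was higher with MS41 than with vehicle in every library, at 0.064, while it was lower in every MV4;11 library with MS41 at 24 h and at 6 h. These differences between settings were not tested, and the in vivo values carry the authors' adjustment. Neither SEMK2 gene nor SCD in vivo was called in its own setting, and MSMO1 was not called in MV4;11 at either time. Libraries did not overlap for 50.2% of all genes with MS41 at 24 h in MV4;11, and that share is not given here for SEMK2 or in vivo.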

How the results depend on the processing

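The main directions were kept, except that SREBF2 with PFI-6 at 24 h stood at 0.012 with the GC trend removed. Counts of called members moved by over 1.5 times as follows. Brackets give calls over all genes in that fit, against those in the main analysis. With no low-count filter there were 5 for MS41N at 6 h (182, against 73) and 1 for PFI-6 at 6 h (723, against 466). It gave 1 for PFI-6 against MS41N at 24 h (189, against 24) and 2 in SEMK2 (912, against 291). With the guides it gave 4 (2803, against 1853). With the GC trend removed there were 7 for MS41N at 6 h (132, against 73) and 1 for PFI-6 at 24 h (702, against 2806). That fit gave 5 for PFI-6 against MS41N at 6 h (14, against 3). It gave 2 for the change of the MS41N effect (30, against 4) and 4 in SEMK2 (910, against 291). DESeq2 gave 4 for PFI-6 against MS41N at 6 h (25, against 3) and 3 at 24 h (174, against 24). It also gave 1 for the change of the PFI-6 effect (194, against 27) and 3 with the guides (2249, against 1853). RLE size factors gave 0 for PFI-6 against MS41N at 6 h (1, against 3). With only the groups compared in the fit there were 0 for PFI-6 against MS41N at 6 h (1, against 3). There were 4 at 24 h (162, against 24) and 1 for the change of the PFI-6 effect (95, against 27). The causes were not tested. With the replicate block there were 6 with the guides, 1 higher and 5 lower (3203, against 1853). It gave 1 for the change of the PFI-6 effect (55, against 27) and changed no other count by as much. In vivo, without the block, 0 members were called, while calls over all genes were 523, against 7 with the block. The replicate numbers were not taken to pair the libraries. Same-numbered libraries had correlations of -0.393 to 0.37 over 84 pairs of the compound set (26 over 0.1) and -0.0922 to 0.416 over 3 pairs of SEMK2. With 2 guide libraries per group, both numbers give the same correlation. It was 0.67 for the control guide and ENLsg1, 0.00632 for the control guide and ENLsg2, and 0.243 for ENLsg1 and ENLsg2. These values cannot settle whether the guide libraries were paired.

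Leaving out single libraries gave 0 to 4 called members for MS41N at 6 h, 0 to 1 for PFI-6 at 6 h, 4 to 8 for PFI-6 at 24 h, 11 to 14 for MS41 at 6 h, 22 to 25 for MS41 at 24 h, 13 to 16 and 19 to 23 for MS41 against MS41N at 6 h and 24 h, 6 to 10 and 20 to 23 for MS41 against PFI-6, 0 to 1 for PFI-6 against MS41N at 6 h, 0 to 1 for the change of the PFI-6 effect, 17 to 19 for that of MS41, 24 to 25 for DMSO, 0 to 9 in SEMK2 and 1 to 4 with the guides. It gave 0 in vivo, for MS41N at 24 h, for the change of the MS41N effect and for PFI-6 against MS41N at 24 h. With the guides, a group without 1 library has a lone library assumed to vary like the others. Some members were near 1 CPM, such as CYP51A1 in MV4;11 DMSO at 6 h and, with the guides, ELOVL6. ELOVL6 had 63 and 42 counts with the control guide, 133 and 73 with ENLsg1 and 110 and 66 with ENLsg2. The part of depth in their spread was not tested.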
